A study of Mus musculus with 10 samples.

Results

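Wnt ligands are secreted glycoproteins that carry signals between neighbouring cells. They bind Frizzled receptors, either with the co-receptors Lrp5 and Lrp6, which leads to stabilised beta-catenin and transcription through Tcf and Lef factors, or with Ror, Ryk and Ptk7, which act on cell shape and movement without beta-catenin. In the mammary gland, Wnt4 is known as a signal that hormone-sensing luminal cells release under progesterone and that acts on the basal layer, and Wnt5a as a ligand that restrains duct growth. The 8 Wnt ligands described here, Wnt4, Wnt5a, Wnt5b, Wnt6, Wnt7b, Wnt9a, Wnt10a and Wnt11, were taken by name from the 49671 gene rows of the count tables. Each of the 8 symbols matched 1 Ensembl identifier, and all 8 passed the filter on low counts, as 19757 genes did.

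The libraries came from mouse mammary gland cells sorted by flow cytometry into 5 populations, with 2 libraries each and 10 in all. Basal cells (BC) form the outer, contractile layer of the gland, and luminal cells (LC) the inner, secretory layer. Neither has a treatment in its labels, and replicate 2 of BC and of LC is marked WT. The 3 treated populations carried the red fluorescent reporter Tomato after luminal cell ablation: basal cells (TBC), hybrid cells (THC) and luminal cells (TLC). The labels used here name no mouse line, no promoter driving the reporter or the ablation, no age and no number of animals, and no untreated Tomato population was analysed, so ablation, the reporter and any difference in genotype cannot be told apart in TBC against BC and in TLC against LC. Nothing states that the libraries came from separate animals, and p-values then measure only the spread between these libraries, which may be technical.

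Counts in genes per library ranged from 2757773 in THC replicate 1 to 13685674 in LC replicate 2. A count of 3 therefore corresponded to 1.16 CPM (counts scaled to the library total) in the shallowest library and to 0.202 CPM in the second THC library. The populations carried the markers of their labels: the summed level of 8 basal genes was 9741 and 13658 CPM in BC against 180 and 101 CPM in LC, and that of 6 luminal genes was 7962 and 6145 CPM in LC against 1256 and 915 CPM in BC. THC lay between them on both, with 5172 and 4163 CPM of basal and 3387 and 2407 CPM of luminal genes. TLC did so too, nearer to LC, with 1282 and 810 CPM of basal and 4678 and 3782 CPM of luminal genes. TBC had 15378 and 11245 CPM of basal and 968 and 648 CPM of luminal genes. Bulk RNA cannot tell cells that hold both programmes from a mixture of cells, nor fewer expressing cells from less RNA per cell, and this holds for every Wnt level below. Summed endothelial, fibroblast and immune markers were highest in THC. The summed level of 6 endothelial genes was 419 and 392 CPM in THC and 34.0 to 309 CPM in the other libraries, that of 6 fibroblast genes 837 and 1900 CPM against 102 to 585 CPM, and that of 6 immune genes 160 and 59.6 CPM against 19.2 to 48.3 CPM, with none of these genes at 0 in any library. Not every gene followed its sum. Pdgfra, in the fibroblast list, was 24.8 and 31.0 CPM in THC against 69.8 and 51.4 CPM in BC. Dcn, in the same list, was 57.7 and 152 CPM in THC against 269 and 274 CPM in LC. The part of these other cells in the Wnt levels of THC was not tested.

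On GRCm38, Wnt4 (ENSMUSG00000036856) lies at chr4:137277489-137299726, Wnt5a (ENSMUSG00000021994) at chr14:28504750-28527448, Wnt5b (ENSMUSG00000030170) at chr6:119432531-119544347 and Wnt7b (ENSMUSG00000022382) at chr15:85535437-85582473. Wnt9a (ENSMUSG00000000126) lies at chr11:59306928-59333552 and Wnt11 (ENSMUSG00000015957) at chr7:98835112-98855195. Wnt6 (ENSMUSG00000033227, chr1:74771892-74785322) and Wnt10a (ENSMUSG00000026167, chr1:74791516-74804179) are neighbours on the same strand with 6193 bp between them. The exons of 3 ligands overlap a gene on the other strand, Wnt5a with Gm2670 over 358 bp, Wnt7b with AU022754 over 324 bp and Wnt11 with the processed pseudogene Gm8398 over 364 bp. Reads in these stretches could belong to either gene, since it is not stated whether counting used strand.

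RefSeq start sites with a 250-base upstream window (GRCm38.p6) were matched for 5 of the 8 genes, namely Wnt4, Wnt5b, Wnt6, Wnt9a and Wnt11. The windows of 3 ligands with different patterns across the populations are shown, Wnt4 as the ligand highest in LC, Wnt9a as one highest in BC and Wnt11 as one that peaks in neither. Each stops before the first annotated GENCODE exon, which leaves 104 bases for Wnt4 (chr4:137277385-137277488, plus strand), 248 bases for Wnt9a (chr11:59306680-59306927, plus strand) and 250 bases for Wnt11 (chr7:98834862-98835111, plus strand). Capitals mark TATAA and the GC box GGGCGG, on either strand, and adjoining matches run together.
Wnt4: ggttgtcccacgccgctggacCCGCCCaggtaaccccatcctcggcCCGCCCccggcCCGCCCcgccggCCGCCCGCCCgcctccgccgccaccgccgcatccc
Wnt9a: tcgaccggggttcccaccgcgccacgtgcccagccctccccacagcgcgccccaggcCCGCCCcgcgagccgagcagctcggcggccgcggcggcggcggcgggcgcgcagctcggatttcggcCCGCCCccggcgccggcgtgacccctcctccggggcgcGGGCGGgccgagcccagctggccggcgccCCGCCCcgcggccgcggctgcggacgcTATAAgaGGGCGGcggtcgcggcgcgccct
Wnt11: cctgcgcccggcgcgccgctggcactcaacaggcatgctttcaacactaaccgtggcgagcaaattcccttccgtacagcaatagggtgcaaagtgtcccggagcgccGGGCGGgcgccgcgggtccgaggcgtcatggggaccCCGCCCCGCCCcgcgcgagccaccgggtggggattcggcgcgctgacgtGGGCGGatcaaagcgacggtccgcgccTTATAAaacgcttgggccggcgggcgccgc
The Wnt4 stretch held 5 GC boxes and no TATAA. Wnt9a held 5 GC boxes and 1 TATAA, whose first base lies 32 bases before the start, and Wnt11 held 4 GC boxes and an overlapping TATAA pair on opposite strands beginning 30 bases before it. All 5 matched ligands had at least 1 GC box, which 32.7% of 32851 RefSeq promoter windows of this length hold, and 2 of the 5 had TATAA, which 22.8% hold. The 5 windows were 70.8% to 85.2% G and C against a median of 52.4% over all windows, and GGGCGG is itself made of G and C. CTTTGA, the core letters bound by Tcf factors, was found in 1 of the 5 (Wnt11; 13.8% of all windows), and AGAACA, a half-site of the steroid receptor class that includes the progesterone receptor, in 0 (16.1% of all windows). These are matches of letters in a short window and say nothing of binding.

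**Figure D1:**
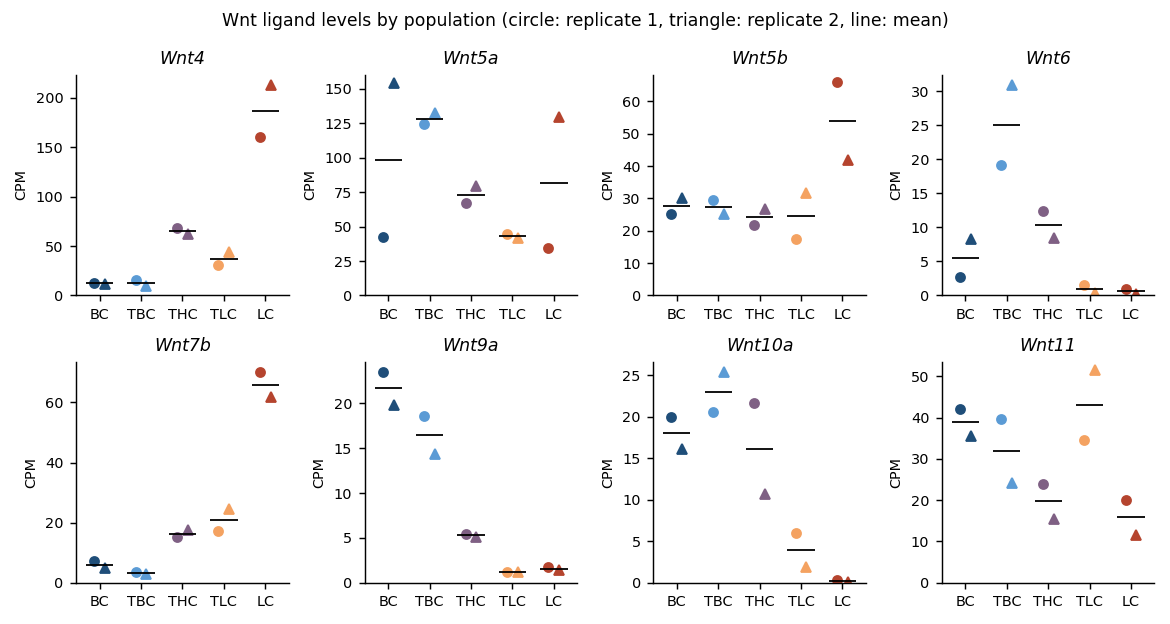
Level of each of the 8 Wnt ligands in CPM (vertical axis, from 0, scaled per gene) in the 2 libraries of each population (circle for replicate 1, triangle for replicate 2) with the mean as a line. Wnt4 and Wnt7b sit highest in both LC libraries, Wnt9a in both BC libraries and Wnt6 in both TBC libraries, and Wnt5a is split between the 2 libraries of BC and of LC.

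The ligand repertoire differed between the layers. Of the 8 ligands, 7 were called in LC against BC, 3 higher and 4 lower in LC, where a call is an adjusted p under 0.05 over all genes tested in edgeR's quasi-likelihood F-test. In the same comparison 24.0% of all genes tested were called, 11.5% higher and 12.5% lower. Wnt4, Wnt7b and Wnt5b were the luminal ligands by this test and Wnt10a, Wnt9a, Wnt6 and Wnt11 the basal ones.

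Wnt4, which has roles in duct side-branching and in kidney and female reproductive tract development, was measured at 161 and 213 CPM in LC and at 12.9 and 11.3 CPM in BC. No LC library overlapped a BC library, and the difference was 15.5-fold (log2 3.96 ± 0.31 SE, edgeR adjusted p = 7.6e-06). TBC held 16.1 and 9.75 CPM, overlapping BC, TLC 30.3 and 44.1 CPM, and THC 68.2 and 62.4 CPM. The order LC, THC, TLC and then both basal populations had no overlap between neighbours except TBC and BC. The test of THC against TLC missed the threshold (log2 0.80 ± 0.27 SE, edgeR adjusted p = 0.21).

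Wnt7b, a ligand with roles in lung and kidney collecting duct growth, followed a like order. It stood at 70.1 and 61.7 CPM in LC, 17.2 and 24.5 CPM in TLC, 15.1 and 17.4 CPM in THC, 7.25 and 4.85 CPM in BC and 3.47 and 2.79 CPM in TBC. LC exceeded BC by 11.1-fold (log2 3.47 ± 0.31 SE, edgeR adjusted p = 1.7e-05). TLC and THC overlapped, and no other neighbours in this order did. Over the 10 libraries the log2 CPM of Wnt7b and Wnt4 had a Pearson r of 0.94, a description in which the 5 populations and the library depths are shared by both genes.

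Wnt5b, which resembles Wnt5a and acts mostly without beta-catenin, was the least lineage-bound of the luminal ligands. Its level was 65.9 and 42.0 CPM in LC and between 17.4 and 31.8 CPM in the other 8 libraries, which overlapped one another. LC against BC was 1.94-fold (log2 0.96 ± 0.32 SE, edgeR adjusted p = 0.047). That call was lost without BC replicate 1 (adjusted p = 0.2), without BC replicate 2 (0.097), without LC replicate 1 (0.31) and in a fit of LC and BC only (0.062), all by edgeR.

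Wnt10a, a ligand needed for tooth and skin appendage development that signals through beta-catenin, had the widest range of the 8. It gave 102 and 189 counts in BC (20.0 and 16.1 CPM) and 3 and 1 counts in LC (0.325 and 0.0718 CPM). From the pooled counts BC exceeded LC by 99.9-fold, with a 95% interval of 38.6 to 369 that covers counting error only. Levels were 20.5 and 25.4 CPM in TBC, 21.7 and 10.7 CPM in THC and 5.96 and 1.91 CPM in TLC. TLC and LC were separate from each other and from BC, TBC and THC, while THC overlapped both BC and TBC.

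Wnt6, the genomic neighbour of Wnt10a and a ligand of embryonic surface epithelium, reached its highest level in TBC, at 19.1 and 30.9 CPM. THC had 12.4 and 8.44 CPM and BC 2.74 and 8.33 CPM. TLC gave 9 and 4 counts and LC 9 and 3 counts, at most 1.58 CPM. By pooled counts BC exceeded LC by 12.8-fold (95% counting interval 7.05 to 25.5), and the test gave a log2 difference of LC against BC of -3.37 ± 0.79 SE (edgeR adjusted p = 0.011). This call was lost without BC replicate 2 (edgeR adjusted p = 0.13) and without LC replicate 2 (0.072). The 2 neighbouring genes parted in the basal populations: Wnt10a ranged over 16.1 to 25.4 CPM in BC and TBC, and Wnt6 over 2.74 to 30.9 CPM. Across the 10 libraries their log2 CPM had a Pearson r of 0.86, given as a description.

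Wnt9a, known from joint and blood stem cell development, separated the populations with little spread between replicates. Its level was 23.5 and 19.8 CPM in BC, 18.6 and 14.4 CPM in TBC, 5.42 and 5.13 CPM in THC, 1.73 and 1.44 CPM in LC and 1.23 and 1.18 CPM in TLC. The TLC levels rest on 7 and 13 counts, the LC levels on 16 and 20 and the THC levels on 14 and 76. LC was 13.6-fold below BC (log2 -3.77 ± 0.35 SE, edgeR adjusted p = 2.1e-05). No neighbours in this order overlapped, but the tests of TBC against BC (edgeR adjusted p = 0.73) and TLC against LC (edgeR adjusted p = 0.64) passed no threshold.

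Wnt11, a ligand of cell movement in the embryo and of kidney branching, was ordered differently. Both BC libraries (42.1 and 35.6 CPM) exceeded both LC libraries (20.2 and 11.6 CPM), by 2.45-fold (log2 -1.29 ± 0.36 SE for LC against BC, edgeR adjusted p = 0.021). The call was lost without BC replicate 1 (edgeR adjusted p = 0.083), BC replicate 2 (0.051) or LC replicate 2 (0.16). Yet TLC, the other luminal population, had the highest mean, with 34.6 and 51.5 CPM against 39.6 and 24.0 CPM in TBC and 24.0 and 15.5 CPM in THC. TLC, BC and TBC overlapped, as did THC and LC.

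Wnt5a, which signals mainly through Ror receptors, was the only ligand with no call in LC against BC (log2 -0.27 ± 0.65 SE, edgeR adjusted p = 0.82). It was split within BC and within LC. BC replicate 1 had 42.1 CPM and BC replicate 2 had 154 CPM, a ratio of 3.66, and LC replicate 1 had 34.4 CPM and LC replicate 2 had 130 CPM, a ratio of 3.77. The high library of each pair is the one labelled WT. The treated populations agreed within themselves, with 124 and 133 CPM in TBC, 67.0 and 79.5 CPM in THC and 44.9 and 41.7 CPM in TLC. The 2 low libraries also had the higher summed endothelial level of their population, 309 against 65.6 CPM in BC and 169 against 34.0 CPM in LC, and its part in the Wnt5a levels was not tested. No comparison involving BC or LC could be read for Wnt5a beyond this spread. The 3 treated populations did not overlap in Wnt5a. TLC was 2.97-fold below TBC (log2 -1.57 ± 0.67 SE, edgeR adjusted p = 0.19) and THC 1.75-fold below TBC (log2 -0.80 ± 0.66 SE, edgeR adjusted p = 0.61). Both missed the threshold in the fit of all libraries and passed it in an edgeR fit of only the populations compared (adjusted p = 0.00054 and 0.041). THC against TLC missed it (edgeR adjusted p = 0.81).

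**Figure D2:**
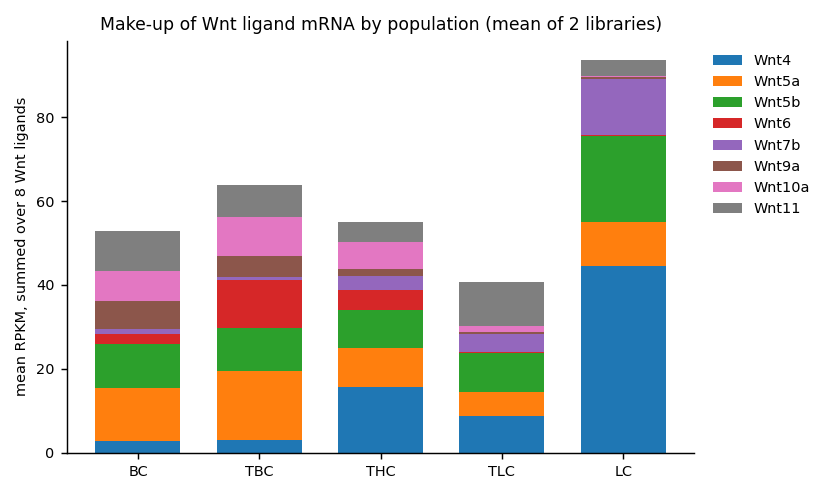
Mean level per exon length (RPKM, vertical axis) of the 8 ligands, stacked by ligand for each population, as the mean of 2 libraries with no error shown. Wnt4 fills 47.7% of the stack in LC, 28.3% in THC and 5.47% in BC, and the summed level is highest in LC.

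Dividing by exon length (CPM per kilobase of exon, RPKM) allows ligands to be ranked within a population. Summed over the 8 ligands, the level was 87.9 and 99.2 RPKM in LC, 46.0 and 59.7 in BC, 63.8 in both TBC libraries, 58.0 and 52.2 in THC and 34.9 and 46.6 in TLC. LC therefore had the most Wnt ligand mRNA and TLC the least by mean. In LC the leading ligand was Wnt4 at 44.6 ± 8.87 RPKM (SD, n = 2), 47.7% of the sum, followed by Wnt5b at 20.3 ± 6.37 RPKM and Wnt7b at 13.5 ± 1.22 RPKM. THC was also led by Wnt4, at 15.6 ± 0.98 RPKM or 28.3% of the sum. BC and TBC were led by Wnt5a, at 12.6 ± 10.1 and 16.4 ± 0.77 RPKM, which made 23.8% and 25.7% of their sums. TLC was led by Wnt11 at 10.4 ± 2.90 RPKM, Wnt5b at 9.25 ± 3.83 RPKM and Wnt4 at 8.88 ± 2.32 RPKM, which lay within each other's spread. The stacked plot shows these make-ups.

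The 11 other Wnt genes added little in any library, at 1.55 to 5.73 CPM summed. Wnt2b and Wnt16 were the 2 that passed the filter on low counts. Neither was called in LC against BC, TLC against LC or THC against TBC, and Wnt2b stayed between 1.25 and 4.46 CPM.

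The comparison of TBC with BC sets Tomato basal cells after luminal ablation beside basal cells labelled with neither. No ligand was called, and 0% of all genes were: the smallest edgeR adjusted p over all genes was 0.181. At an unadjusted p under 0.05 stood 2 of the 8 ligands and 1725 genes, 8.73% of those tested. These ligands were Wnt6, with 2.74 and 8.33 CPM in BC and 19.1 and 30.9 CPM in TBC (log2 2.12 ± 0.64 SE, edgeR adjusted p = 0.41), and Wnt7b, 1.92-fold lower in TBC (log2 -0.94 ± 0.32 SE, edgeR adjusted p = 0.46). Wnt6 was called by DESeq2 (log2 2.15, adjusted p = 0.036) and by edgeR without the low-count filter (log2 2.14, adjusted p = 0.00024). The other 8 of 10 alternative fits left it uncalled. The 0% of all genes given above belongs to the main fit and not to the 2 fits that called Wnt6. With 2 libraries against 2, a difference that failed the test is not shown to be absent.

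**Figure D3:**
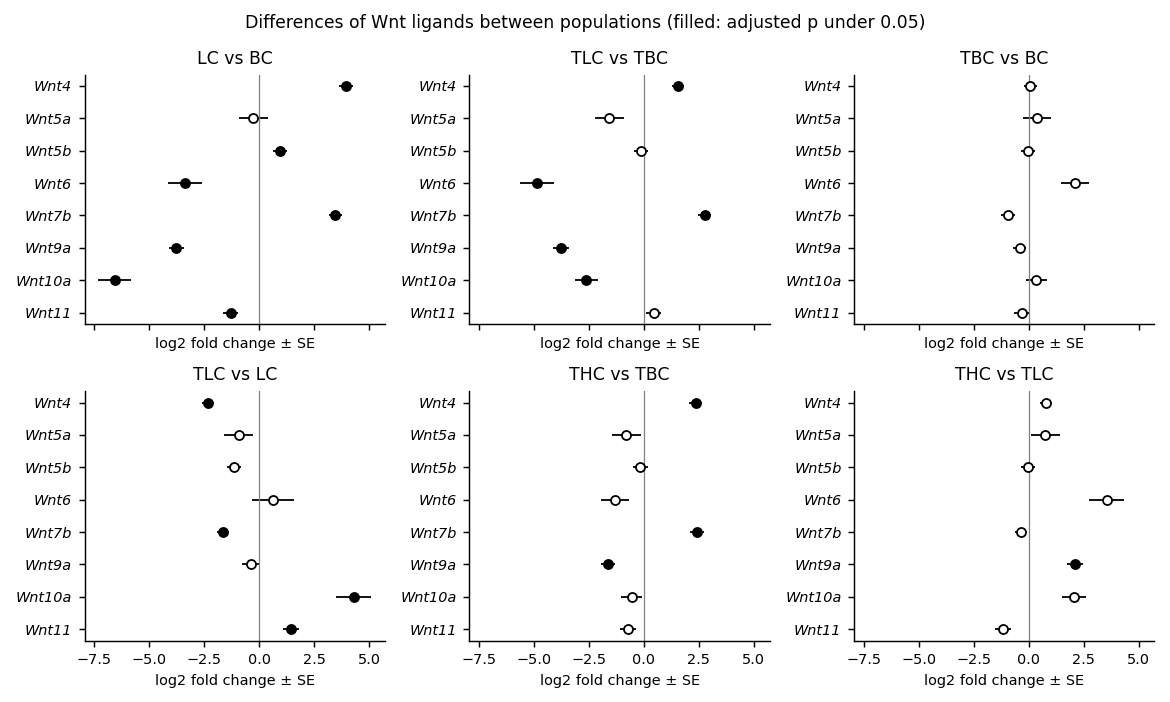
Log2 fold change (horizontal axis) with its standard error for each of the 8 ligands in 6 comparisons between populations. Filled points have an edgeR adjusted p under 0.05 over all genes: 7 in LC against BC, 5 in TLC against TBC, 0 in TBC against BC, 4 in TLC against LC, 3 in THC against TBC and 1 in THC against TLC.

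TLC against LC does the same for luminal cells. It shares the LC libraries with LC against BC, so these comparisons are not independent. Here 4 of 8 ligands were called, 2 lower and 2 higher in TLC. Of all genes 8.22% were called, 4.46% higher and 3.77% lower. Wnt4 was 5.0-fold lower, with 30.3 and 44.1 CPM in TLC against 161 and 213 CPM in LC (log2 -2.32 ± 0.28 SE, edgeR adjusted p = 0.00092). Wnt7b was 3.14-fold lower (log2 -1.65 ± 0.28 SE, edgeR adjusted p = 0.0047), a call lost without TLC replicate 1 (adjusted p = 0.056). Wnt5b was 2.17-fold lower and missed the threshold (log2 -1.12 ± 0.32 SE, edgeR adjusted p = 0.052). It was called by DESeq2 (adjusted p = 0.022) and by edgeR with the set of library numbers as a block (0.034), without the low-count filter (0.0037) and without TLC replicate 2 (0.028).

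Wnt10a and Wnt11 were higher in TLC. Wnt10a gave 34 and 21 counts in TLC against 3 and 1 in LC, a pooled ratio of 19.1 (95% counting interval 7.04 to 72.5; edgeR adjusted p = 0.0081), and was not called without LC replicate 2 (adjusted p = 0.068). TLC stayed below TBC for this gene, by a log2 difference of -2.62 ± 0.54 SE (edgeR adjusted p = 0.0074; 0.061 without TLC replicate 2). Wnt11 was 2.73-fold higher in TLC than in LC (log2 1.45 ± 0.36 SE, edgeR adjusted p = 0.029), which was lost without TLC replicate 1 (0.057), TLC replicate 2 (0.17) or LC replicate 2 (0.2). Wnt6 and Wnt9a, the other basal ligands, were not called (edgeR adjusted p = 0.78 and 0.64), and both were at most 1.73 CPM in all 4 luminal libraries.

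Basal keratins moved with the gain of Wnt10a. Krt14 was 676 and 380 CPM in TLC against 34.8 and 10.6 CPM in LC. Of 8 basal markers 4 were called higher in TLC, where 4.46% of all genes were. The smooth muscle marker Acta2 was 55.6 and 58.0 CPM in TLC, 34.9 and 12.4 CPM in LC and at least 1510 CPM in BC and TBC. Their part in the Wnt10a and Wnt11 levels was not tested. General luminal markers were also at lower levels in TLC, with a sum over 6 genes of 4678 and 3782 CPM against 7962 and 6145 CPM in LC. Their median log2 difference was -0.62, 0 of the 6 were called, and their part in the Wnt4 and Wnt7b levels was not tested.

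Whether Tomato cells differed from LC in the luminal layer as they did from BC in the basal layer was also tested. The contrast was the difference between TLC against LC and TBC against BC. Wnt4 was the 1 ligand of 8 called (log2 -2.40 ± 0.40 SE, edgeR adjusted p = 0.023), where 0.911% of all genes were called. Its level in TBC was 1.06 times that in BC, while in TLC it was 5.0-fold below LC. The call was lost without BC replicate 2 (adjusted p = 0.069), TBC replicate 1 (0.074), TLC replicate 1 (0.083) or LC replicate 2 (0.066), and the log2 difference stayed between -2.72 and -2.04 over 14 alternative fits. Wnt10a had a difference of 3.95 ± 0.95 SE in the other direction and missed the threshold (edgeR adjusted p = 0.097). It was called by DESeq2 (adjusted p = 0.004), with the set of library numbers as a block (0.033), without the low-count filter (1.8e-05) and without TLC replicate 2 (0.043).

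**Figure D4:**
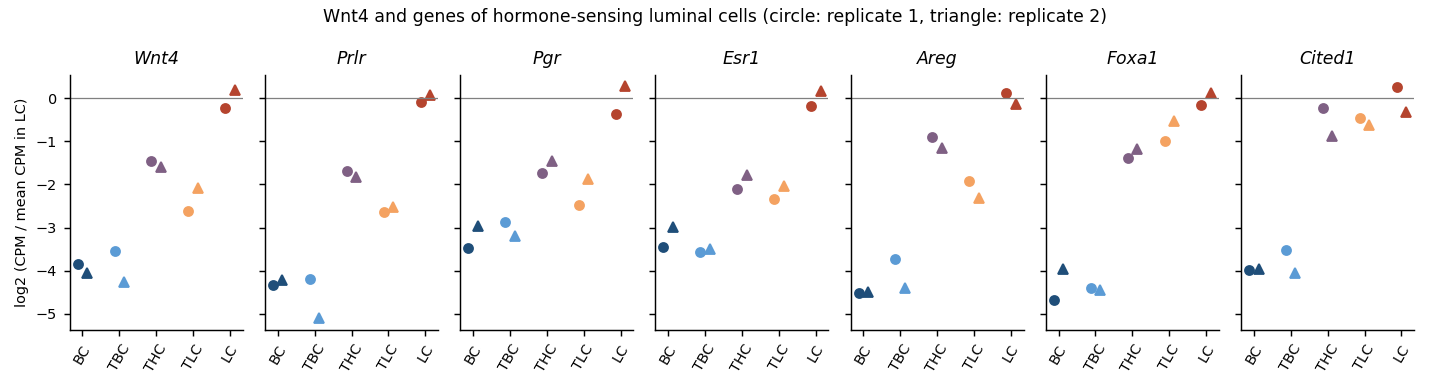
Wnt4 and 6 of the 7 listed genes of hormone-sensing luminal cells by population (circle for replicate 1, triangle for replicate 2). Values are the log2 ratio of a library's CPM to the mean CPM in LC (vertical axis, shared), and Tnfsf11 is not shown. The TLC libraries of Wnt4, Prlr, Pgr, Esr1 and Areg lie further below the LC mean than those of Foxa1 and Cited1.

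Wnt4 is set here beside genes of hormone-sensing luminal cells, a list of 7 genes chosen with results of these data known. In LC against BC 6 of the 7 were called higher, where 11.5% of all genes were. They were led by Areg (log2 4.51 ± 0.29 SE), an epidermal growth factor receptor ligand, and Foxa1 (4.26 ± 0.30), a factor that opens chromatin for the oestrogen receptor. Esr1, that receptor (3.20 ± 0.25), and Prlr, the prolactin receptor (4.28 ± 0.35), came next. The edgeR adjusted p of the genes named ran from 3.3e-06 to 1.1e-05, and that of Tnfsf11, not called, was 0.086. In TLC against LC 4 of the 7 were called, all lower, where 3.77% of all genes were called lower. These were Prlr (log2 -2.57 ± 0.33 SE, edgeR adjusted p = 0.0011), Esr1 (-2.17 ± 0.24, 7e-04), the progesterone receptor gene Pgr (-2.14 ± 0.31, 0.0022) and Areg (-2.11 ± 0.26, 0.00097), beside -2.32 for Wnt4. Foxa1, the coactivator gene Cited1 and Tnfsf11 were not called. Tnfsf11 had a log2 difference in the other direction (0.94 ± 1.03 SE, edgeR adjusted p = 0.68). It rests on 5 and 33 counts in TLC and 8 and 17 counts in LC. Foxa1 was 256 and 353 CPM in TLC against 458 and 560 CPM in LC.

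The 3 genes closest to Wnt4 in log2 CPM over the 10 libraries, among 13000 genes with a mean of at least 5 CPM, were Prlr (Pearson r = 0.993), Gm21973 (0.992) and Fads6 (0.990). Prlr was measured at 4247 and 4683 CPM in LC, 1393 and 1250 CPM in THC, 718 and 781 CPM in TLC, 221 and 238 CPM in BC and 243 and 130 CPM in TBC, the same order of populations as Wnt4 from LC down to TLC. The closest genes were Cd82, 5330417C22Rik and Gse1 for Wnt7b (r from 0.989 to 0.993), Zfp37, 6330403K07Rik and Phldb1 for Wnt9a (0.989 to 0.995), Slc1a3, Col17a1 and Gm44323 for Wnt10a (0.988 to 0.992) and Eif5a2, Itga5 and Ncam1 for Wnt6 (0.977 to 0.986). Wnt5b (Znfx1, Zdhhc14 and Pcnx, 0.945 to 0.946), Wnt5a (Tigd2, Adprm and Eps8, 0.936 to 0.938) and Wnt11 (Camk2d, Crybg1 and Syne2, 0.903 to 0.936) had looser neighbours. These r values describe 10 libraries of 5 populations and are the highest of many, so they are given without a test.

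Hybrid cells were compared with each of the other populations. Against TBC, 3 of 8 ligands were called, where 3.72% of all genes were (2.57% higher, 1.14% lower). Wnt4 was 5.11-fold higher in THC (log2 2.35 ± 0.29 SE, edgeR adjusted p = 0.0018) and Wnt7b 5.30-fold higher (2.41 ± 0.31, 0.0025). Both calls held in all 10 alternative fits, including those without either THC library. Wnt9a was 3.13-fold lower (log2 -1.65 ± 0.32 SE, edgeR adjusted p = 0.017), a call lost when any 1 of the 4 libraries was left out (adjusted p from 0.053 to 0.14). In the same comparison 6 of 7 hormone-sensing genes were called higher, with Areg (log2 3.03 ± 0.27 SE), Foxa1 (3.16 ± 0.29) and Prlr (2.83 ± 0.33) among them. The endothelial, fibroblast and immune sums given above were higher in THC than in TBC as well, but 0 of the 6 genes in each list were called. In THC against LC, 2 endothelial, 3 fibroblast and 3 immune genes were called higher, where 8.91% of all genes were. In THC against BC these counts were 0, 2 and 1, where 7.71% of all genes were called in either direction. Their part in the Wnt calls was not tested.

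Against LC, THC had 6 called ligands, 3 higher and 3 lower, where 12.9% of all genes were called (8.91% higher, 4.0% lower). Of the 4 basal ligands, 3 were higher in THC: Wnt10a by a pooled ratio of 71.2 (95% counting interval 27.4 to 264), Wnt6 by 17.4 (9.69 to 34.4) and Wnt9a by 3.31-fold (log2 1.73 ± 0.35 SE, edgeR adjusted p = 0.0083). Wnt11 was not called (log2 0.28 ± 0.37 SE, edgeR adjusted p = 0.68), and its libraries overlapped. The luminal ligands were lower in THC: Wnt4 by 2.87-fold (edgeR adjusted p = 0.0045), Wnt7b by 4.01-fold (0.0012) and Wnt5b by 2.19-fold (0.039). Without LC replicate 2, the calls of Wnt6 (adjusted p = 0.052) and Wnt9a (0.083) were lost. Wnt9a was also lost without THC replicate 2 (0.06) and in a fit of THC and LC only (0.061), and Wnt5b without THC replicate 1 (0.2), THC replicate 2 (0.12) or LC replicate 1 (0.22). Against BC, 3 ligands were called, where 7.71% of all genes were: Wnt4 (log2 2.43 ± 0.29 SE, edgeR adjusted p = 0.0022) and Wnt7b (1.47 ± 0.30, 0.016) were higher in THC and Wnt9a lower (-2.04 ± 0.32, 0.0055). Wnt7b was not called without BC replicate 2 (0.13) or THC replicate 2 (0.11) or in a fit of THC and BC only (0.065), nor Wnt9a without THC replicate 2 (0.051).

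THC and TLC differed in 1 called ligand, where 1.61% of all genes were called. Wnt9a was 4.33-fold higher in THC, at 5.42 and 5.13 CPM against 1.23 and 1.18 CPM (log2 2.11 ± 0.37 SE, edgeR adjusted p = 0.021). These levels rest on 14 and 76 counts in THC and 7 and 13 counts in TLC. The call was lost in limma-voom (adjusted p = 0.061), in a fit of THC and TLC only (0.11) and when any 1 of the 4 libraries was left out (0.057 to 0.22). Wnt6 (pooled ratio 11.6, 95% counting interval 6.58 to 22.2; edgeR adjusted p = 0.057) and Wnt10a (log2 2.05 ± 0.54 SE, edgeR adjusted p = 0.1) missed the threshold, and DESeq2 called both (adjusted p = 8.4e-05 and 0.0064).

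TLC and TBC, the marked luminal and basal cells, differed in 5 of 8 ligands, where 13.6% of all genes were called (5.59% higher, 8.02% lower). Wnt4 (log2 1.55 ± 0.29 SE, edgeR adjusted p = 0.0037) and Wnt7b (2.76 ± 0.31, 2e-04) were higher in TLC. Wnt6 was lower by a pooled ratio of 34.9 (95% counting interval 20.2 to 66.0), Wnt9a by 13.5-fold (edgeR adjusted p = 8.9e-05) and Wnt10a by 6.13-fold. The difference between the layers for Wnt4 was thus 2.94-fold among the marked cells (adjusted p = 0.056 without TBC replicate 2), beside 15.5-fold between LC and BC. For Wnt9a the corresponding values were 13.5-fold and 13.6-fold.

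**Figure D5:**
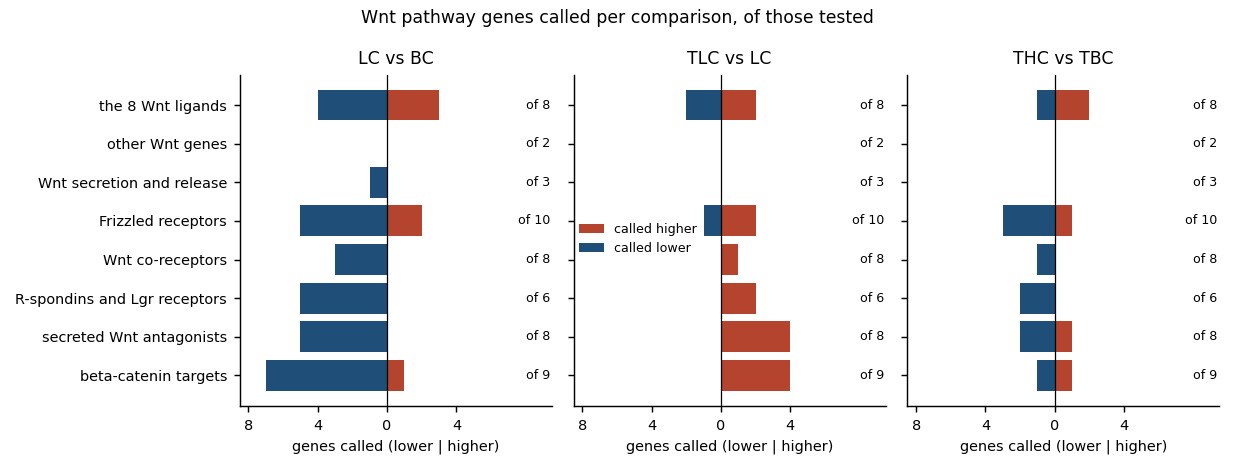
Number of genes called higher (right of 0) or lower (left of 0) in LC against BC, TLC against LC and THC against TBC for the 8 Wnt ligands and 7 further lists of the Wnt pathway, with the number tested at the right of each bar. In LC against BC the ligands are split 3 to 4, while the secretion, co-receptor, R-spondin and antagonist lists have bars on the lower side only. Of all genes, 24.0%, 8.22% and 3.72% were called in these comparisons, in the order named.

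The genes that release, receive and limit Wnt signals were taken as 6 further lists. For release, Wls, which carries Wnt proteins to the cell surface, was at 72.1 to 186 CPM in all 10 libraries and was not called in LC against BC, TLC against LC or THC against TBC. The 1 called gene of 3 tested in this list was Trabd2b, a protease that cuts Wnt proteins, lower in LC than in BC (log2 -1.93 ± 0.32 SE, edgeR adjusted p = 0.0011). In that comparison 24.0% of all genes were called.

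More receptor genes were called lower than higher in LC against BC, where 24.0% of all genes were called (11.5% higher, 12.5% lower). Of 10 Frizzled genes, 5 were called lower and 2 higher, led by Fzd7 (log2 -3.75 ± 0.34 SE, edgeR adjusted p = 2.1e-05), which stood at 588 and 1129 CPM in BC and 60.3 and 67.1 CPM in LC. Fzd3 (-1.74), Fzd2 (-2.23) and Fzd1 (-1.90) were also lower. Of 8 co-receptor genes, Ror1 (-2.65), Reck (-2.19) and Ptk7 (-1.19) were called lower and 0 higher, while Lrp5 and Lrp6 were not called. The next list held R-spondins, their Lgr receptors, which raise the amount of Frizzled at the surface, and ligases that remove it. Rspo1, the R-spondin tested, was not called, at 17.9 and 9.19 CPM in LC against 4.12 and 2.98 CPM in BC (log2 1.95 ± 0.90 SE, edgeR adjusted p = 0.16). Of 6 genes tested 5 were called lower in LC, led by Lgr5 (-6.53 ± 0.49, edgeR adjusted p = 9.6e-06), Lgr4 (-2.49), Lgr6 (-2.06) and the ligase gene Znrf3 (-1.28). This last count fell to 2 at the lowest when 1 library was left out.

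Most secreted antagonists and target genes tested were lower in LC as well, where 12.5% of all genes were called lower and 11.5% higher. Of 8 antagonists tested, 5 were called lower and 0 higher: Dkk3 (log2 -5.37), Wif1 (-7.12), which binds Wnt proteins directly, Sfrp1 (-4.98) and Sostdc1 (-2.79) led by adjusted p. Of 9 beta-catenin targets tested, 7 were lower and 1 higher. Axin2, a feedback inhibitor widely used as a readout of the pathway, was 31.6 and 51.4 CPM in BC and 4.34 and 2.44 CPM in LC (log2 -3.64 ± 0.36 SE, edgeR adjusted p = 3.2e-05). Bambi (-2.58) and Apcdd1 (-3.40) were lower, and the 1 higher gene was Ccnd1, the cell cycle gene of cyclin D1 (3.16 ± 0.28), which many signals besides Wnt regulate. The median log2 difference of the targets tested was -2.58 and that of all genes -0.04.

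In TLC against LC, which shares the LC libraries with that comparison, antagonists had 4 of 8 genes called higher and 0 lower, Sfrp1 (log2 3.40 ± 0.53 SE, edgeR adjusted p = 0.0055), Sostdc1 (3.50 ± 0.47, 0.0017), Dkk3 (2.01 ± 0.28, 0.002) and Wif1 (2.20 ± 0.58, 0.047), a count that was 2 without LC replicate 2. Lgr5 was 118 and 62.2 CPM in TLC against 7.70 and 3.52 CPM in LC (4.03 ± 0.44, edgeR adjusted p = 0.00079). Targets had 4 of 9 called higher and 0 lower, a count that was 2 without TLC replicate 1. The members that moved were Nkd2, Tcf7, Apcdd1 and Ccnd1, and Axin2 was not among them, at 4.39 and 5.37 CPM in TLC. Of all genes, 8.22% were called in this comparison, 4.46% higher and 3.77% lower. Frizzled genes had 2 higher and 1 lower of 10. These 3 calls became 0 without TLC replicate 1 and 1 without LC replicate 1 or LC replicate 2.

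In THC against TBC 3.72% of all genes were called, 2.57% higher and 1.14% lower. Of 10 Frizzled genes 3 were lower and 1 higher, 2 of 6 R-spondin and Lgr genes were lower and 1 of 8 co-receptors was lower. Axin2 was lower (16.7 and 20.5 CPM in THC against 46.3 and 54.8 CPM in TBC; log2 -1.43 ± 0.32 SE, edgeR adjusted p = 0.032) and Ccnd1 higher (1.90 ± 0.26, 0.0033), the 2 of 9 targets called. Antagonists had 2 lower and 1 higher of 8. These counts rest on all 4 libraries: with 1 left out, the Frizzled count was 0 to 2, the R-spondin and Lgr count 0, the co-receptor count 0, the antagonist count 0 to 1 and the target count 1.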

How the data were processed

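For each library the authors deposited raw HTSeq counts, listed by Ensembl gene. Per the labels' protocols, RNA of the sorted cells was taken with the RNeasy Micro kit, and libraries were made with the Ovation Solo RNA-Seq system and sequenced on a NovaSeq instrument. Per the submitters' processing notes, STAR, HTSeq and GRCm38 (mm10) were used. Tool versions, the annotation and the use of strand were not given in the sources used here.

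The HTSeq summary entries were left out: 12.6% to 30.8% of reads had no feature and 14.6% to 43.0% no unique alignment, most in THC replicate 1. Of 49671 identifiers, 49412 matched GENCODE M21 and 259 did not. Groups come from the labelled cell type. Replicates are numbered in the order of the sample records, and the labels state no pairing. The library numbers in the sample titles fall into an earlier and a later set. Whether these sets were batches is not known, and they served as a block in an alternative fit. Counts were filtered by edgeR's filterByExpr, scaled by TMM and tested with its quasi-likelihood F-test (robust) on all 10 libraries, with 1 coefficient per population and 5 residual degrees of freedom. P-values were adjusted by Benjamini-Hochberg over all 19757 genes tested. CPM use TMM factors, log2 CPM a prior count of 2, and RPKM the union of annotated exons. SE is that of the log2 fold change. Ratios with intervals come from pooled counts. Versions were 4.0.16 for edgeR, 1.42.0 for DESeq2, 3.58.1 for limma and 4.3.3 for R. The scripts were tested on simulated data.

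The 8 ligands and all gene lists were chosen with earlier results of these data known. All ligands are named, and in each pathway list up to 4 called genes with the smallest adjusted p in LC against BC, and the 3 genes with the highest r per ligand. Wls, Lrp5, Lrp6, Rspo1, Pgr, Cited1, Tnfsf11, Nkd2, Tcf7, Krt14, Acta2, Pdgfra and Dcn were named after their values were seen. Alternatives were RLE factors, no low-count filter, the set of library numbers as a block, DESeq2, limma-voom, a fit restricted to the compared populations, and refits with each library left out. Their use on the list counts was added after the data were seen.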

Additional observations from a re-analysis of the deposited data

Results flagged for a closer look

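For Wnt4 the difference of Tomato cells from BC or LC was unlike in the 2 layers, by a test of that contrast itself. Its cause cannot be told from this design. TLC against LC minus TBC against BC was -2.40 ± 0.40 (log2, SE; edgeR quasi-likelihood F-test, adjusted p = 0.023). TLC had 30.3 and 44.1 CPM against 161 and 213 CPM in LC, and both TLC libraries were lower than both LC libraries. TBC had 16.1 and 9.75 CPM against 12.9 and 11.3 CPM in BC, and these overlapped. The adjusted p ranged from 8.1e-08 to 0.083 over 14 alternative fits.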

How the results depend on the processing

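Of 30 called ligand differences refitted 304 times, 263 refits kept the call, 41 lost it and 0 reversed it. Of 447 refits of the 42 uncalled differences, 22 gained a call and 29 changed sign without one. Wnt6 in TLC against LC could not be fitted with only the populations compared, where it failed the filter. Wnt4 kept its call in LC against BC, TLC against LC, THC against TBC, THC against BC and THC against LC in all alternatives.

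Numbers of ligands called that moved by over 1.5 times were these. Without the low-count filter, 1 was called in TBC against BC, 4 in THC against TLC and 3 in the difference between layers, TLC against LC minus TBC against BC. DESeq2 called 1, 3 and 2 in these. With the set of library numbers as a block, 2 ligands were called in THC against TLC and 2 in the difference between layers. The block called 683 and 425 of 19757 genes in these 2. Limma-voom called 0 in THC against TLC. Leaving out 1 library gave 4 to 6 in LC against BC, 2 to 4 in TLC against LC, 0 in THC against TLC, 1 to 3 in THC against BC and 0 to 2 in the difference between layers. A population left with 1 library takes its spread from the others. Over all genes, the block changed the number called from 734 to 1510 in THC against TBC and from 0 to 33 in TBC against BC. The labels state no pairing, and replicate numbers follow the order of the records. The block also called Wnt5b in TLC against LC (adjusted p = 0.034).

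Depth limits Wnt6 in TLC and LC and Wnt10a in LC, where libraries held 1 to 9 counts. It also limits Wnt9a, with 7 and 13 counts in TLC, 16 and 20 in LC and 14 in THC replicate 1.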
